A study of Mus musculus with 10 samples.

Results

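This report describes 10 genes of iron and copper handling, Lcn2, Cp, Heph, Slc40a1, Slc11a2, Cybrd1, Tfrc, Fth1, Ftl1 and Atp7b, of the 19505 genes named on the array. They were chosen by name, and the set was prompted by the rise of Lcn2 and Cp in the comparison of IκBα knockout with wild type organoids. The levels of these 2 genes are therefore described here without a test, while the other 8 were tested. Each of the 10 had 1 probe set, so no choice between probe sets arose. In the knockout organoids Lcn2 and Cp lay far above wild type. Among the other 8, Heph, Slc11a2, Tfrc, Fth1 and Atp7b fell, Ftl1 rose, and Slc40a1 and Cybrd1 did not pass the test.

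Iron enters the absorptive enterocyte at its apical side, where a reductase turns ferric iron into the ferrous form and a transporter carries it inward. Inside the cell it is used, or stored in ferritin, or passed out at the basolateral side through ferroportin with the help of a copper-dependent ferroxidase. Copper has its own importers, chaperones and pumps, and joins iron metabolism through the ferroxidases. During inflammation, epithelia and neutrophils secrete proteins that bind iron or its bacterial carriers and keep it from microbes.

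The samples were mouse intestinal organoids, epithelial structures grown in culture, with 5 labelled KO and 5 labelled WT for the genotype at IκBα. IκBα, the product of Nfkbia, holds NF-kB transcription factors in the cytoplasm. All 10 source labels carry the mark P6, and neither its meaning nor the knockout allele, any driver, the strain or the age of the mice is stated in the sources used here. Nothing in the labels ties a replicate to an animal or culture of its own, and the p-values therefore cover only the spread among these samples, possibly technical.

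Levels are deposited RMA values in log2 units, and each change is the KO mean minus the WT mean. A gene is said to have risen or fallen where limma's p-value, adjusted by the Benjamini-Hochberg method over all 19572 named probe sets, was under 0.05. By that rule 5224 of the 19572 probe sets (26.7%) were called, 15.0% as higher and 11.7% as lower in KO, and the groups did not overlap in 21.4%. The median level per array was 6.03 to 6.23. Negative control probe sets, which match no transcript, had medians of 4.30 to 5.10 per array and 95th percentiles of 7.17 to 7.77. A gene under that percentile is near background, and folds against such a group are given as lower bounds. Nfkbia had means of 5.06 ± 0.31 in KO and 9.19 ± 0.38 in WT (SD, n = 5 each), so the targeted gene was at least 3.35-fold lower in the arrays labelled KO. The sources used here do not place its probes relative to the deleted part.

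Of 10 epithelial markers 3 rose, 3 fell and 4 did not pass the test, with changes from -2.16 to 1.43. Well above background in both groups were Epcam at means of 10.82 in KO and 11.12 in WT and Cdh1 at 12.72 and 12.27. Vil1, which encodes a brush border protein, had means of 10.11 in KO and 11.14 in WT. Absorptive enterocyte markers moved with the groups. Of 15 such genes 14 fell and 0 rose, among them Sis (at least 23.4-fold lower), Fabp2 (at least 19.9-fold), Alpi (at least 28.7-fold) and Fabp1 (at least 9.94-fold), each under the 95th percentile of the negative controls in all 5 KO arrays. The mean level of the 15 per array was 5.41 to 5.62 in KO and 9.65 to 11.73 in WT. In a bulk sample, fewer cells of a type and less RNA per cell cannot be told apart. The Y-linked genes Eif2s3y, Uty and Kdm5d were also lower in KO, with changes of -5.20, -4.47 and -2.42 and all KO arrays near background, so the sex of the material and the genotype cannot be told apart in these arrays.

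Of the 8 tested members, 1 rose and 5 fell, against 15.0% and 11.7% of all named probe sets. In 5 of the 8 the KO and WT values did not overlap, against 21.4% of all named probe sets. Since the members were proposed with results of these arrays known, the shares are printed for scale.

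**Figure D1:**
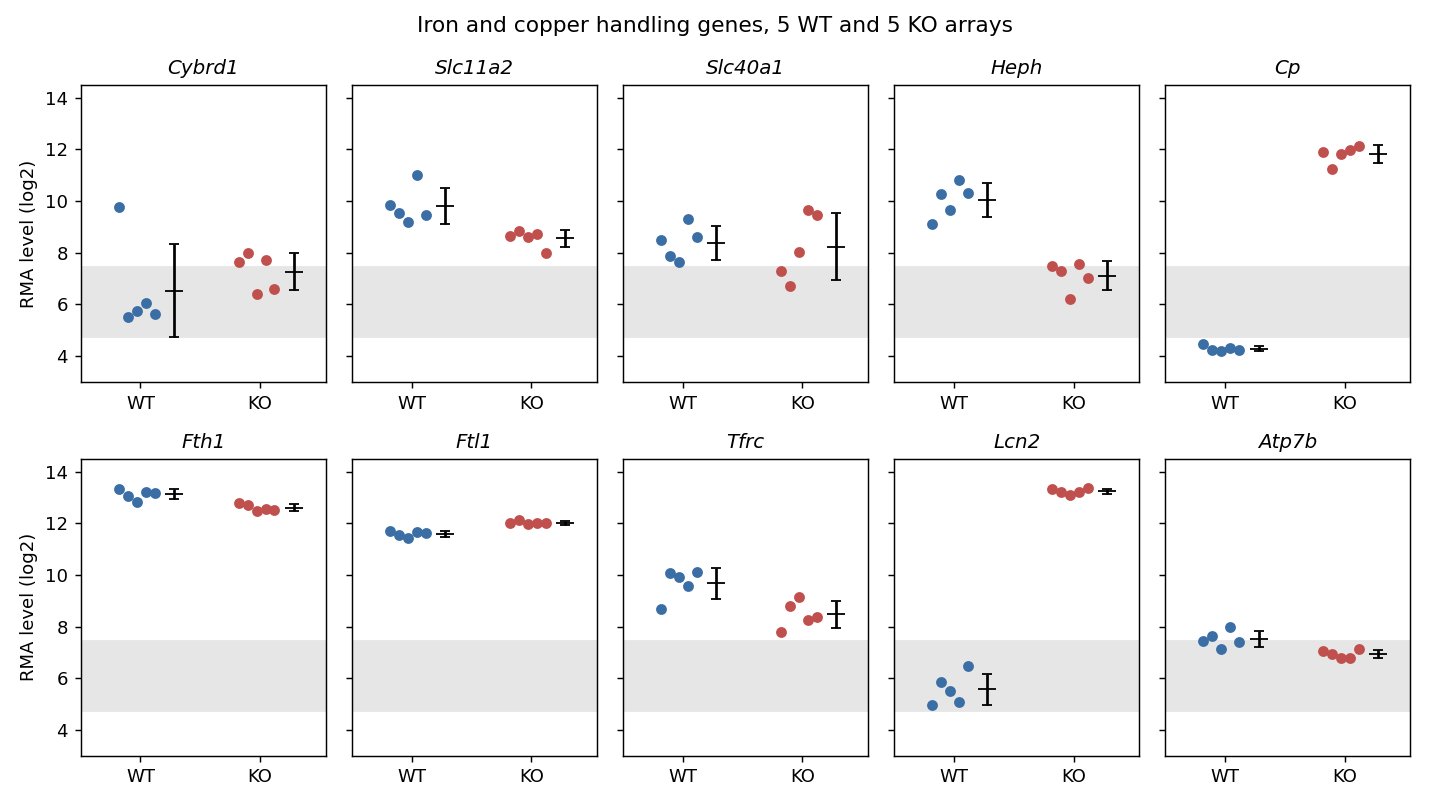
RMA level (log2, vertical axis) of the 10 members in the 5 WT and 5 KO arrays, with each point an array and the bar the mean ± SD. The grey band runs from the mean negative control median to the mean negative control 95th percentile. Lcn2 and Cp lie in or under the band in WT and far above it in KO, Heph shows the reverse order, and Slc40a1 and Cybrd1 overlap between groups.

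Apical uptake was represented by Cybrd1, which encodes duodenal cytochrome b, the ferric reductase of the brush border, and Slc11a2, which encodes the ferrous iron importer DMT1. Slc11a2 was at 8.66, 8.84, 8.60, 8.74 and 7.996 in KO replicates 1 to 5 and at 9.83, 9.56, 9.19, 11.01 and 9.47 in WT replicates 1 to 5. Every WT array lay above every KO array, with KO replicate 5 the lowest and WT replicate 4 the highest. The means were 8.57 ± 0.33 and 9.81 ± 0.71 (SD, n = 5 each), and Slc11a2 fell by 1.25 (SE 0.30), or 2.37-fold (limma, adjusted p = 0.00921).

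Cybrd1 was at 7.63, 7.996, 6.39, 7.72 and 6.61 in KO and at 9.76, 5.51, 5.73, 6.06 and 5.64 in WT. WT replicate 1 stood above all 9 other arrays, while the other 4 WT arrays lay under all 5 KO arrays. The means were 7.27 ± 0.72 and 6.54 ± 1.81 (SD, n = 5 each), a change of 0.73 (SE 0.73, 95% confidence interval -0.87 to 2.34) that did not pass the test (limma, adjusted p = 0.526). Without WT replicate 1 the change was 1.54 and passed (limma, adjusted p = 0.00508), so 1 array decided the call. In 4 WT and 3 KO arrays the level was under the 95th percentile of the negative controls.

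Export was represented by Slc40a1, which encodes ferroportin, the cellular iron exporter. It was at 7.30, 6.73, 8.03, 9.66 and 9.47 in KO and at 8.49, 7.89, 7.65, 9.29 and 8.60 in WT. KO replicates 4 and 5 were the highest of all 10 arrays and KO replicates 1 and 2 the lowest, with WT in between. The means were 8.24 ± 1.30 and 8.38 ± 0.65 (SD, n = 5 each), and the change of -0.15 (SE 0.55, 95% confidence interval -1.35 to 1.06) did not pass the test (limma, adjusted p = 0.881). Its sign was positive without KO replicate 1 (0.09), without KO replicate 2 (0.23) and without WT replicate 4 (0.08). The interval spans changes of more than 2-fold either way, so the arrays do not set the direction of ferroportin.

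Heph encodes hephaestin, the membrane ferroxidase that works beside ferroportin on the basolateral side of enterocytes. It was at 7.50, 7.29, 6.22, 7.58 and 7.01 in KO and at 9.12, 10.29, 9.67, 10.80 and 10.31 in WT. Every WT array lay above every KO array, and 3 KO arrays were under the 95th percentile of the negative controls. The means were 7.12 ± 0.55 and 10.04 ± 0.65 (SD, n = 5 each). Heph fell by 2.92 (SE 0.33), at least 5.87-fold when KO levels under the 95th percentile of the negative controls were set to it (limma, adjusted p = 3.77e-05). Among the tested members its change was the largest in size. The gene lies on chromosome X, and the difference in Y-linked genes noted above applies to the same arrays.

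Within WT, Heph was lowest in replicate 1 and highest in replicate 4, the arrays where the mean of the 15 enterocyte genes was lowest (9.65) and highest (11.73). The other genes did not keep this order. Tfrc was lowest in WT replicate 1 but second lowest in WT replicate 4, Slc11a2 was highest in WT replicate 4 but second highest in WT replicate 1, and Cybrd1 was highest in WT replicate 1. In KO the enterocyte mean varied only from 5.41 to 5.62, while Heph varied from 6.22 to 7.58. The part of the enterocyte level in the change of Heph, Slc11a2 or Tfrc was not tested.

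**Figure D2:**
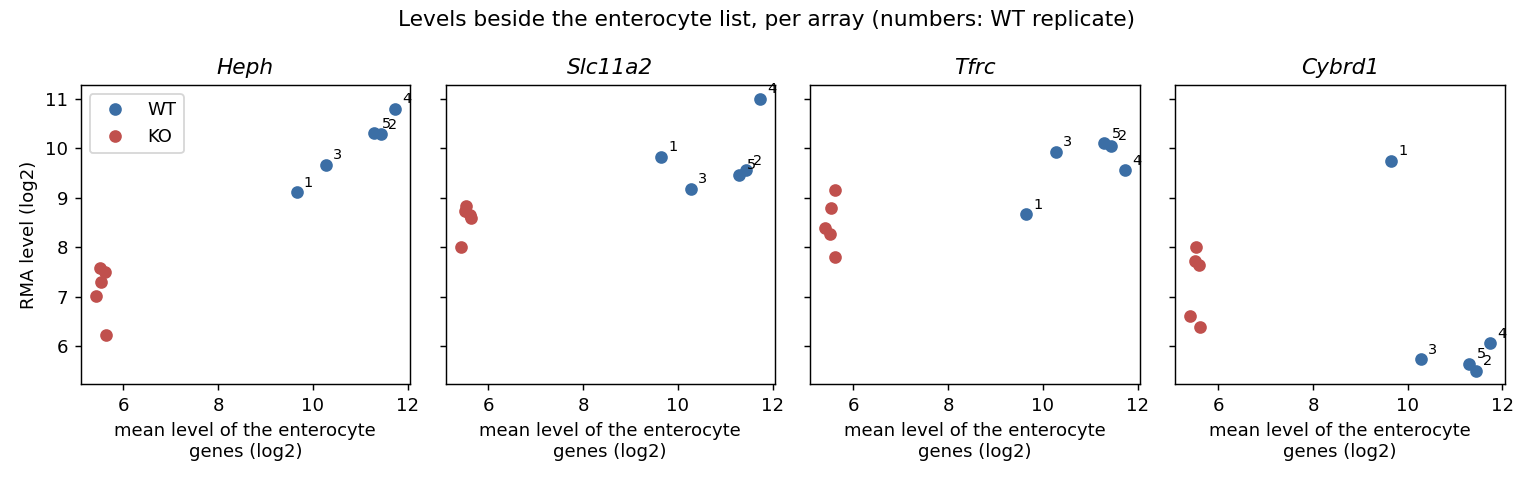
RMA level (log2, vertical axes) of Heph, Slc11a2, Tfrc and Cybrd1 against the mean level of the 15 enterocyte genes in the same array (log2, horizontal axes), with WT and KO arrays as points and WT replicates numbered. All KO arrays sit between 5.41 and 5.62 on the horizontal axis, and WT replicate 1 is the lowest WT array there, with low Heph and Tfrc and high Cybrd1.

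Cp encodes ceruloplasmin, the copper-carrying ferroxidase best known as a plasma protein made by the liver. It was at 11.90, 11.25, 11.83, 11.97 and 12.15 in KO and at 4.47, 4.24, 4.20, 4.32 and 4.23 in WT. In all 5 WT arrays it was under the median of the negative controls, and in KO it was well above their 95th percentile. The means were 11.82 ± 0.34 and 4.29 ± 0.11 (SD, n = 5 each), at least 21.0-fold higher in KO against the 95th percentile of the WT negative controls. The gene was selected on this rise, so no test is given. The 2 genes of the set for copper ferroxidases thus differed in direction, Cp being higher and Heph lower in KO.

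Other hepatocyte markers were read beside Cp. Alb, the gene of the main plasma protein made by hepatocytes, had means of 5.00 in KO and 6.18 in WT, under the 95th percentile of the negative controls. Hnf4a, with means of 10.23 in KO and 11.31 in WT, and Ttr, with 8.22 and 8.70, lay above that percentile on average. Of 8 hepatocyte genes measured, 0 rose and 3 fell, and their mean level per array was 6.19 to 6.46 in KO and 6.50 to 6.88 in WT. The called share was 37.5%, against 26.7% of all named probe sets. Alb, Serpina1a, Apoh, Ahsg, Fgb and Tat were under the 95th percentile of the negative controls in every array. The counts and the mean level thus mostly describe genes near background.

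Ferritin stores iron in a shell made of heavy and light chains. Fth1, the heavy chain with ferroxidase activity, was at 12.79, 12.70, 12.46, 12.54 and 12.52 in KO and at 13.34, 13.07, 12.81, 13.22 and 13.18 in WT. The groups nearly met at KO replicate 1 and WT replicate 3 but did not overlap. The means were 12.60 ± 0.14 and 13.12 ± 0.20 (SD, n = 5 each), and Fth1 fell by 0.52 (SE 0.12), or 1.44-fold (limma, adjusted p = 0.00617).

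Ftl1, the light chain, was at 11.995, 12.14, 11.96, 12.0 and 12.0 in KO and at 11.68, 11.54, 11.42, 11.67 and 11.63 in WT. Every KO array lay above every WT array, and KO replicate 2 was the highest. The means were 12.02 ± 0.07 and 11.59 ± 0.11 (SD, n = 5 each), and Ftl1 rose by 0.43 (SE 0.09), or 1.35-fold (limma, adjusted p = 0.00392). The heavy and light chain genes thus moved in opposite directions. Ferritin genes have near-identical pseudogene copies, so both probe sets may read more than 1 locus. The 8 control probe sets taken by name (AFFX) as labelling controls had a median change of -0.52, with a range of -0.85 to -0.10. The 63 taken by name (ERCC) as spike-ins had a median change of -0.12, with a range of -0.55 to 0.22. The change of Fth1 thus lay within both ranges and that of Ftl1 above both, and the part of labelling in them was not tested. Fth1 kept its fall and Ftl1 its rise in all 19 alternative settings, which included 2 other normalizations.

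Tfrc encodes the transferrin receptor, which takes up transferrin-bound iron and marks iron demand in dividing cells. It was at 7.80, 8.80, 9.16, 8.27 and 8.39 in KO and at 8.67, 10.06, 9.94, 9.56 and 10.11 in WT. WT replicate 1 lay within the KO range, under KO replicates 2 and 3, and the other 4 WT arrays lay above every KO array. The means were 8.48 ± 0.52 and 9.67 ± 0.60 (SD, n = 5 each), and Tfrc fell by 1.18 (SE 0.31), or 2.27-fold (limma, adjusted p = 0.0133).

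Lcn2 encodes lipocalin 2, a secreted protein that captures the iron carriers, or siderophores, of bacteria, and a well known NF-kB target. It was at 13.31, 13.19, 13.09, 13.20 and 13.37 in KO and at 4.96, 5.84, 5.50, 5.08 and 6.47 in WT. All 5 WT arrays were under the 95th percentile of the negative controls. The KO levels were close to the top of the scale, the highest value of any probe set being 13.27 to 13.37 per KO array, and in KO replicate 5 Lcn2 was itself the highest. The means were 13.23 ± 0.11 and 5.57 ± 0.61 (SD, n = 5 each), at least 55.8-fold higher in KO. The gene was selected on this rise, so no test is given.

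Lcn2 is also abundant in neutrophils, so markers of white blood cells were read beside it. Mpo, the myeloperoxidase gene, had means of 5.26 in KO and 5.48 in WT, and Ptprc, the gene of the pan-leukocyte protein CD45, 5.49 and 5.70, all near background. Of 11 neutrophil genes 2 rose (Ltf and Itgam) and 0 fell, with a mean level per array of 5.64 to 6.24 in KO and 5.20 to 5.37 in WT. Itgam and Prtn3 were under the 95th percentile of the negative controls in 5 WT and 4 KO arrays. S100a8, S100a9, Mpo, Elane, Camp, Ngp, Cxcr2 and Csf3r were under it in every array. The list mean thus mostly describes genes near background, and the highest change on the list was that of Ltf (4.58). Of 11 macrophage genes 4 rose and 1 fell, with a mean level of 6.10 to 6.27 in KO and 5.54 to 5.89 in WT. This list also holds Itgam. Ptprc, Adgre1, Fcgr1, Mrc1, C1qa, C1qb and Cd163 were under the 95th percentile of the negative controls in every array. Csf1r, like Itgam, was under it in 5 WT and 4 KO arrays, so this list too mostly describes genes near background. The called share was 18.2% for the neutrophil and 45.5% for the macrophage genes, against 26.7% of all named probe sets. On the macrophage list the highest change was that of Cd14 and the lowest that of Lyz2. Cd14 had means of 11.40 in KO and 6.70 in WT, at least 15.1-fold higher. Lyz2 had means of 4.61 in KO and 8.79 in WT, at least 2.55-fold lower. Col1a1, a fibroblast gene, had means of 7.13 and 7.18 in KO and WT, and Pecam1, an endothelial gene, 5.18 and 5.15.

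Atp7b encodes the copper pump that loads ceruloplasmin with copper in hepatocytes. It was at 7.05, 6.95, 6.79, 6.79 and 7.12 in KO and at 7.42, 7.64, 7.13, 7.99 and 7.41 in WT. The groups did not overlap, but KO replicate 5 and WT replicate 3 almost met. The means were 6.94 ± 0.15 and 7.52 ± 0.32 (SD, n = 5 each), and Atp7b fell by 0.58 (SE 0.15; limma, adjusted p = 0.0150). All 5 KO arrays and 2 WT arrays were under the 95th percentile of the negative controls, so the fold is not well measured.

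**Figure D3:**
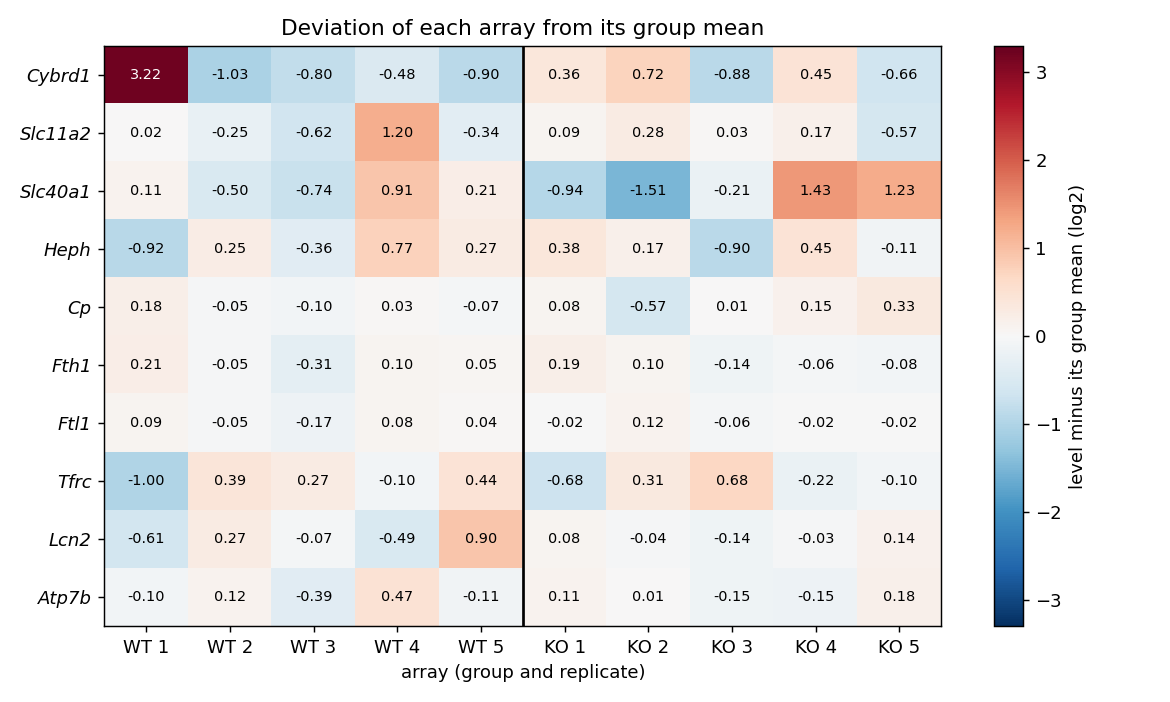
Level of each member (rows) in each array (columns) minus the mean of its own group, in log2 units, printed in the cells. Cybrd1 in WT replicate 1 lies farthest from its group, and the KO arrays split at Slc40a1, with replicates 4 and 5 above their mean and 1 and 2 below it.

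Promoter windows are shown for Lcn2 and Cp because these members differed most between groups. Of the 10 members, 7 had at least 1 window in the RefSeq table for GRCm38.p6, and the 250 bases before each start were searched on both strands for 5 short motifs. In all 32851 windows searched, GGGNNNNNCC, a loose form of the NF-kB site, was found in 45.8%. The C/EBP-like TTGCNNAA was found in 9.56%, the STAT-like TTCNNNGAA in 7.02%, the hypoxia response core ACGTG in 16.6% and the metal response core TGCNCNC in 44.4%. Capitals mark the matches. In the Lcn2 window, a C/EBP-like match lay 216 to 209 bases before the start and an NF-kB-like match, on the reverse strand, 102 to 93 bases before it. Cp has 2 annotated starts in the table. The window of the first held 2 metal response cores, and that of the second an NF-kB-like match and a C/EBP-like match. The first 200 bases of the Lcn2 window (chr2:32387790-32387989, minus strand) and of the first Cp window (chr3:19956804-19957003, plus strand), and the 30 bases around the matches of the second Cp window (chr3:19957093-19957122 and chr3:19957168-19957197, plus strand), read 5′ to 3′:
Lcn2 upstream: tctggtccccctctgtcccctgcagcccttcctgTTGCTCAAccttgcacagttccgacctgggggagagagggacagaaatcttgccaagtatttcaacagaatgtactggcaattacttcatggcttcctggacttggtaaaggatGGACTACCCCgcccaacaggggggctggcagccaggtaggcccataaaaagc
Cp upstream of the first start: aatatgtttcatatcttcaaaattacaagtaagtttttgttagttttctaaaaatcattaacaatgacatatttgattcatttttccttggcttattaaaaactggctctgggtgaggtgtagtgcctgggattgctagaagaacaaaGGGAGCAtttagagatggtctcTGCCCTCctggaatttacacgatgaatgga
Cp NF-kB-like match: tgtttgttttGGTTTTTCCCcttcgtggtt
Cp C/EBP-like match: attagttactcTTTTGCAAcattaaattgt

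The NF-kB-like form is too common to set members apart. It was also found in windows of Cybrd1, Ftl1, Atp7b, Tfrc and Fth1, members that rose, fell or did not pass the test. The C/EBP-like form was also found for Fth1 and the metal response core for Atp7b and Tfrc. No member window held TTCNNNGAA, and ACGTG was found in 1 window of Tfrc. A match is a description of the letters, and binding was not measured.

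Beyond the 10 members, 111 other genes of iron, haem and copper handling were listed by role, and 103 of them were measured under those names. Of the 103, 20 rose, 23 fell and 60 did not pass the test, so 41.7% were called, against 26.7% of all named probe sets. Their median change was -0.16, against -0.01 over all 19505 genes. For 6 of the 20 that rose and 3 of the 23 that fell, the brighter group did not exceed the negative control bound of the dimmer one, so no fold is supported for them. By role, the called share was 62.5% for transporters and reductases, 40% for carriers, 50% for iron-sulphur assembly and 47.8% for copper handling. It was 35.7% for storage and sensing, 28.6% for the hepcidin axis and 16.7% for haem synthesis and breakdown. Like the members, all gene lists were chosen with earlier results of these arrays known, so their shares are printed for scale.

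**Figure D4:**
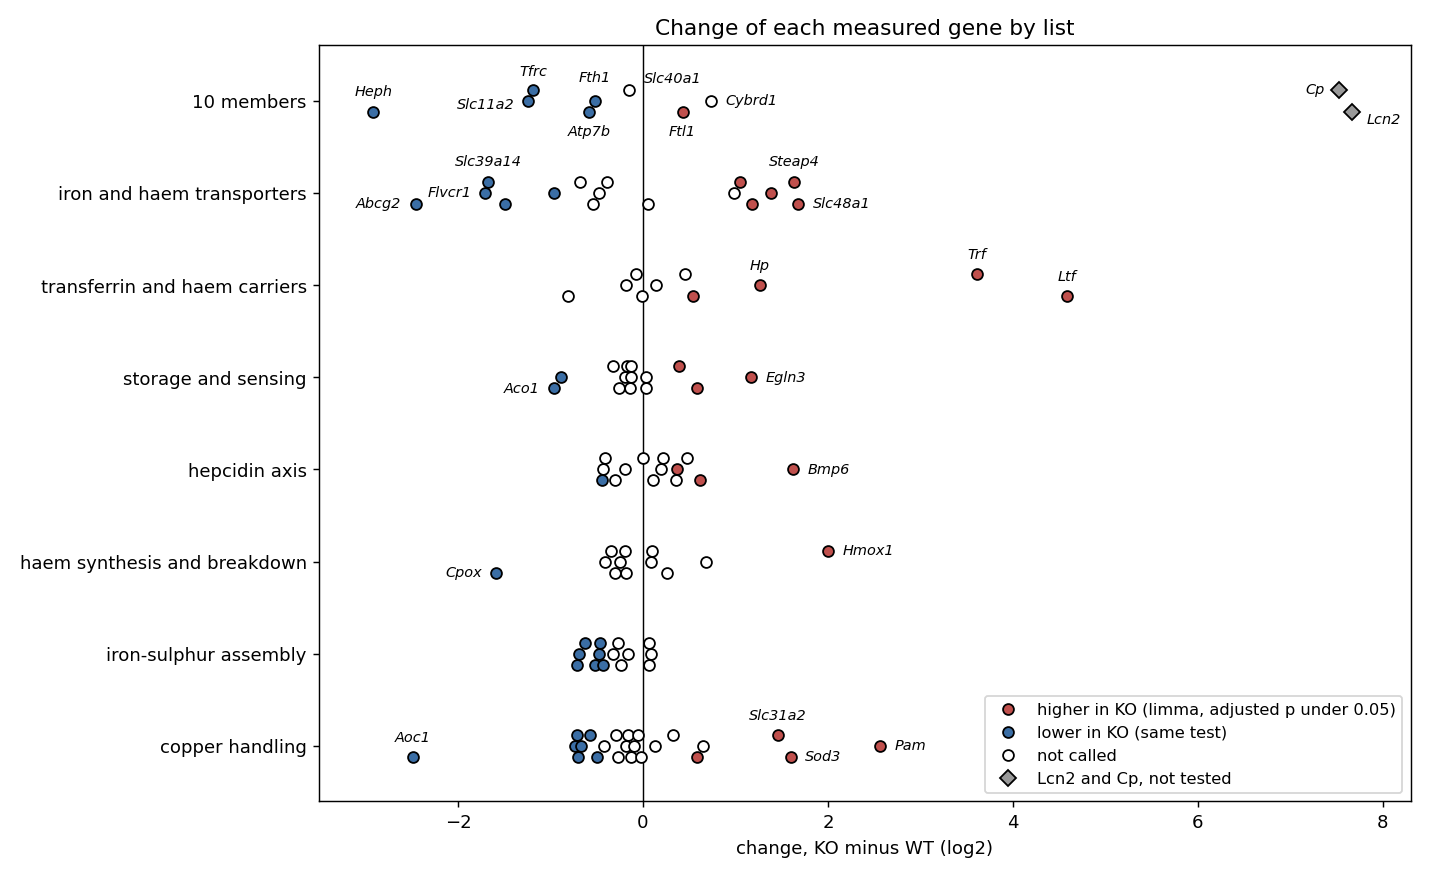
Change from WT to KO (log2, horizontal axis) of each measured gene by list, with genes called higher in KO in red, called lower in blue and not called in white. Lcn2 and Cp, which were not tested, are grey diamonds far to the right, followed by Ltf and Trf, while the iron-sulphur list has no gene called higher.

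Among 16 other iron and haem transporters and reductases, 5 rose, 5 fell and 6 did not pass, with a median of -0.43. Slc48a1, which carries haem out of endolysosomes, was at 9.95, 9.91, 9.89, 9.84 and 9.92 in KO and at 7.83, 8.08, 8.69, 7.82 and 8.72 in WT, and rose by 1.68 (SE 0.18; limma, adjusted p = 3.17e-05). Its KO arrays lay within about 0.1 of each other and above every WT array. Steap4, a metalloreductase, rose by 1.63 (SE 0.37; limma, adjusted p = 0.00557), from 5.36 to 5.93 in WT to 6.25 to 8.52 in KO. All 5 WT arrays and 3 KO arrays were under the 95th percentile of the negative controls, so no fold is given.

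Slc39a14, which encodes the zinc and iron importer ZIP14, was at 8.18, 8.09, 8.18, 8.34 and 8.09 in KO and at 9.77, 9.71, 9.67, 10.57 and 9.52 in WT. It fell by 1.67 (SE 0.18; limma, adjusted p = 2.32e-05) with no overlap. The genes of 2 exporters that carry haem or related porphyrins were lower as well. Abcg2 fell by 2.46 (SE 0.53; limma, adjusted p = 0.00463), at least 3.89-fold, and Flvcr1 fell by 1.71 (SE 0.31; limma, adjusted p = 0.00148), at least 2.43-fold. In KO, 2 arrays of Abcg2 and 4 of Flvcr1 were under the 95th percentile of the negative controls. Abcg2 spread widely in KO, from 5.81 in replicate 1 to 9.25 in replicate 3. Steap3, the endosomal reductase of the transferrin cycle, changed by -0.68 and did not pass (limma, adjusted p = 0.0671). It passed without WT replicate 4 (limma, adjusted p = 0.0132), also with KO replicate 2 left out as well (limma, adjusted p = 0.0182). It passed too with 75th percentile centring, array weights or the replicate block (limma, adjusted p 0.0380 to 0.0424). For Steap3 all 5 KO arrays and 2 WT arrays were under the 95th percentile of the negative controls, so no fold is given.

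Of 10 carriers of iron and haem and their receptors, 4 rose, 0 fell and 6 did not pass, with a median of 0.30. Meltf, Hpx, Tfr2, Cd163, Lrp2, Cubn and Hp were under the 95th percentile of the negative controls in every array. The counts and the median thus mostly describe genes near background. Ltf, which encodes lactoferrin, an iron-binding protein of secretions, was at 10.48, 10.03, 10.11, 9.37 and 9.09 in KO and at 5.22, 5.21, 5.08, 5.22 and 5.42 in WT. It rose by 4.58 (SE 0.23; limma, adjusted p = 4.23e-08), at least 5.22-fold, with every WT array near background. Trf, which encodes transferrin, the iron carrier of plasma, was at 11.07, 10.80, 9.96, 8.74 and 9.71 in KO and at 6.32, 6.48, 7.00, 6.36 and 6.07 in WT. It rose by 3.61 (SE 0.38; limma, adjusted p = 2.09e-05), at least 6.17-fold, so the genes of transferrin and of its receptor Tfrc moved in opposite directions. Hp, which encodes the haemoglobin carrier haptoglobin, rose by 1.26 (limma, adjusted p = 0.0269), but all 10 arrays were under the 95th percentile of the negative controls. Its call was lost when KO replicate 5 was left out, as with WT replicates 2, 3 and 5 (limma, adjusted p 0.0514 to 0.0614).

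**Figure D5:**
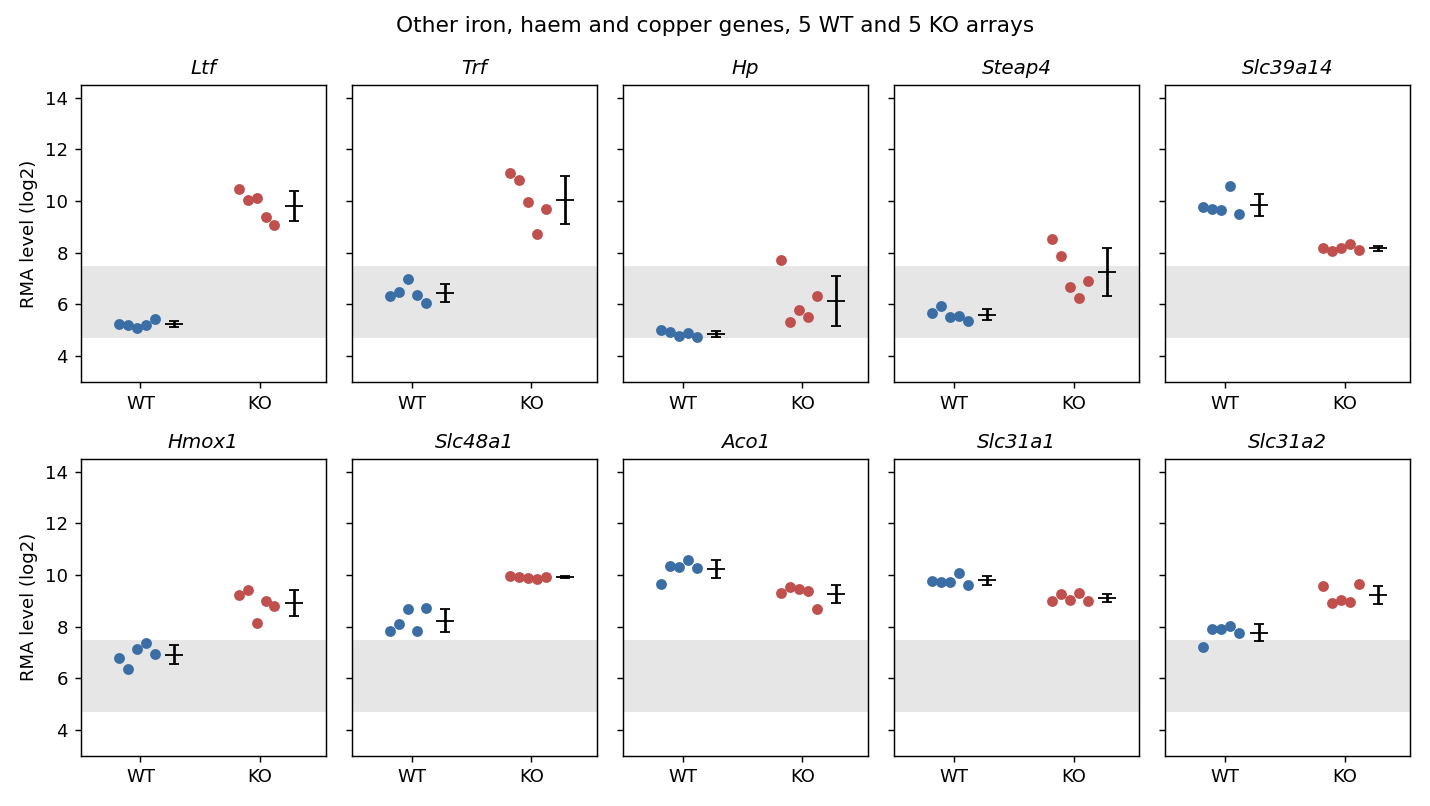
RMA level (log2, vertical axis) of 10 other iron, haem and copper genes in the 5 WT and 5 KO arrays, with each point an array, the bar the mean ± SD and the grey band the negative control range from mean median to mean 95th percentile. Ltf and Trf leave the band in all KO arrays, Slc39a14, Aco1 and Slc31a1 are lower in KO, and Hp stays near or in the band.

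In storage and sensing, 3 of 14 genes rose, 2 fell and 9 did not pass, with a median of -0.14. Aco1, which encodes iron regulatory protein 1, was at 9.27 ± 0.35 in KO and 10.23 ± 0.34 in WT (SD, n = 5 each), and fell by 0.96 (SE 0.20; limma, adjusted p = 0.00339). Its partner Ireb2, which encodes iron regulatory protein 2, changed by -0.14 (limma, adjusted p = 0.362). Ncoa4, the ferritinophagy receptor, changed by 0.04 (limma, adjusted p = 0.898), and Pcbp1, an iron chaperone that delivers iron to ferritin, by -0.32 (limma, adjusted p = 0.173). Epas1, which encodes HIF-2α, the hypoxia factor that drives iron uptake genes in the gut, fell by 0.89 (SE 0.26; limma, adjusted p = 0.0250). That call was lost when KO replicate 1 was left out, as with WT replicates 2 and 4 (limma, adjusted p 0.0508 to 0.0656 over these and the removal of KO replicate 2 with WT replicate 4), which left 1 fallen gene on the list. Egln3, a prolyl hydroxylase of the hypoxia pathway, rose by 1.17 (SE 0.32; limma, adjusted p = 0.0180), with WT replicate 4 inside the KO range.

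Of 14 genes of the hepcidin axis, 3 rose, 1 fell and 10 did not pass, with a median of 0.15, and without WT replicate 4 the fallen genes were 2. The called share of 28.6% was near the 26.7% of all named probe sets. Hjv, Hfe, Bmp2, Tmprss6 and Acvr1 were under the 95th percentile of the negative controls in all 10 arrays. Hamp, the gene of hepcidin itself, was at means of 6.60 in KO and 6.61 in WT, near background in both (limma, adjusted p = 0.986). Bmp6, the gene of a ligand that induces hepcidin in the liver, was at 7.28, 6.91, 7.12, 7.98 and 7.73 in KO and at 5.59, 5.80, 5.74, 6.04 and 5.71 in WT. Its level rose by 1.62 (SE 0.19; limma, adjusted p = 5.81e-05) with no overlap, but all 5 WT arrays and 3 KO arrays were under the 95th percentile of the negative controls, so no fold is given.

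In haem synthesis and breakdown, 1 of 12 genes rose, 1 fell and 10 did not pass, with a median of -0.19. Hmox1, which encodes haem oxygenase 1, the inducible enzyme that frees iron from haem, was at 9.21, 9.43, 8.13, 8.98 and 8.79 in KO and at 6.78, 6.35, 7.13, 7.35 and 6.94 in WT. It rose by 2.0 (SE 0.25; limma, adjusted p = 7.69e-05) with no overlap, at least 2.78-fold, since all 5 WT arrays were under the 95th percentile of the negative controls. Cpox, a late enzyme of haem synthesis, was at 8.17 ± 0.38 in KO and 9.76 ± 0.33 in WT (SD, n = 5 each), and fell by 1.59 (SE 0.20; limma, adjusted p = 0.000102). A second riser appeared without KO replicate 2 or without WT replicate 4, and a second gene fell without KO replicate 2 or without WT replicate 3.

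Iron-sulphur cluster assembly, which builds the iron cofactors of mitochondrial enzymes, had 14 measured genes. Of these 7 fell, 0 rose and 7 did not pass, with a median of -0.37 and no change over 1 in size. The number that fell was 4 without KO replicate 1, 3 without WT replicate 2 and 4 without WT replicate 3.

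Of 23 copper genes, 4 rose, 7 fell and 12 did not pass, with a median of -0.16. Slc31a1, which encodes the high-affinity copper importer CTR1, was at 8.99, 9.25, 9.01, 9.31 and 8.99 in KO and at 9.77, 9.74, 9.74, 10.06 and 9.61 in WT, and fell by 0.67 (SE 0.11; limma, adjusted p = 0.000929). Slc31a2, its relative of endosomes and lysosomes, was at 9.57, 8.92, 9.01, 8.95 and 9.66 in KO and at 7.23, 7.92, 7.92, 8.0 and 7.76 in WT, and rose by 1.46 (SE 0.19; limma, adjusted p = 0.000143), at least 2.62-fold with 1 WT array near background. Neither gene overlapped between groups, and the 2 moved in opposite directions.

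Among copper enzymes, Pam, which amidates peptide hormones, rose by 2.57 (SE 0.14; limma, adjusted p = 1.1e-07), from 7.94 ± 0.29 to 10.50 ± 0.15 (SD, n = 5 each). Aoc1, which encodes diamine oxidase, an enterocyte enzyme, fell by 2.49 (SE 0.47; limma, adjusted p = 0.00189), at least 4.44-fold with 4 KO arrays near background, and with KO replicate 2 above WT replicate 1. Sod3, the extracellular superoxide dismutase, rose by 1.60 (limma, adjusted p = 4.7e-06), with all 10 arrays under the 95th percentile of the negative controls. Atox1, the chaperone that hands copper to the copper pumps, rose by 0.58 (SE 0.13; limma, adjusted p = 0.00581). Atp7a, the pump that exports copper from enterocytes, changed by 0.33 and did not pass (limma, adjusted p = 0.112). It passed without WT replicate 4 (limma, adjusted p = 0.0393) and with array weights (limma, adjusted p = 0.0440). For Atp7a 4 WT and 2 KO arrays were under the 95th percentile of the negative controls.

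For each member whose change exceeded 1 in size, the genes with the most similar profile were found as those with the smallest root mean square difference over the 10 arrays, each gene centred on its own mean. For Lcn2 they were Gabrp (0.48), Cxcl5 (0.49) and Muc1 (0.55), and for Cp they were Cxcl5 (0.35), Gabrp (0.35) and Muc1 (0.49). For genes with so large a rise the measure is set mostly by the gap between the groups, on which Lcn2 and Cp were selected, so this is a description only. For Heph they were Khk (0.29), Galm (0.29) and Cyp2j9 (0.30), for Slc11a2 Adipor2 (0.26), Hectd3 (0.27) and Abca14 (0.28), and for Tfrc Slc18b1 (0.29), Cat (0.33) and Ahcy (0.34).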

How the data were processed

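Total RNA (100 ng per sample, per the labels) from 5 KO and 5 WT organoid samples was measured on 1 Affymetrix array each. The authors deposited log2 levels per probe set. Per the submitters' processing notes RMA made them, and limma is named there too. Tool versions, a genome build and any joint normalization of the arrays were not given in the sources used here. Of 28846 probe sets, 6640 were controls (5222 of them negative controls), 19572 had 1 gene symbol and 2634 are unnamed here. With no read depth in array data, precision is limited by the number of arrays; over probe sets the SD had a median of 0.20 among KO and 0.21 among WT arrays. Detection calls were not used here.

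The deposited levels were compared with limma 3.58.1 in R 4.3.3 by a linear model of KO against WT with moderated variances, with Benjamini-Hochberg adjustment over the 19572 named probe sets. Python 3.11.15 with numpy 2.4.6, pandas 2.3.3 and matplotlib 3.10.9 made tables and figures, and the model step was tested on simulated data. A gene was read by its brightest probe set on average over all arrays. The members and all gene lists were chosen with earlier results of these data known. Beside the members, the text names up to 4 called genes with the largest change over 1 in size from each iron and copper list and 14 genes listed by name whatever their values. From the enterocyte and acute-phase lists it names the 4 largest called changes. It also names defining cell type markers, sex-linked genes, Nfkbia and the 3 nearest genes of each member that changed by over 1. Further genes of the lists are named where their levels limit how a list reads. Genes of these lists without a probe set of that name were not analysed here. A bound takes, per array of the dim group, the higher of the gene's own level and the 95th percentile of the negative controls.

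The 19 alternatives were cyclic loess, centring on the 75th percentile, leaving out the dimmest 20% of probe sets, trend and robust variances, array weights, the mean of a gene's probe sets, adjustment over all probe sets but controls, the replicate number as a block, each array left out, and 2 arrays left out together. The groups share replicate numbers, but the labels do not say what a number marks. The correlations of the deviations of same-numbered arrays were -0.01, -0.07, 0.36, 0.18 and -0.06, so the numbers were not taken as pairs. Promoter sequences came from RefSeq (GRCm38.p6).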

Additional observations from a re-analysis of the deposited data

Results flagged for a closer look

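In 3 of the 20 groups of 5 arrays (10 members in KO and WT), 1 array lay far from the other 4 by the gap to its nearest neighbour over the group's range (Dixon's ratio). Chance does so in about 1 of 20 groups. Cybrd1 in WT replicate 1 was at 9.76, while the other 4 WT arrays were at 5.51 to 6.06 (ratio 0.869). Slc11a2 in KO replicate 5 was at 7.996, while the others were at 8.60 to 8.84 (ratio 0.713). Ftl1 in KO replicate 2 was at 12.14, while the others were at 11.96 to 12.0 (ratio 0.778).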

How the results depend on the processing

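Lcn2, Cp, Heph, Slc11a2, Tfrc, Fth1, Ftl1 and Atp7b kept their direction in all 19 alternatives, and the tested ones among them their call. Slc40a1 changed sign with array weights (0.31) and without KO replicate 2 and WT replicate 4 together (0.46), and ranged from -0.50 to 0.23 when single arrays were left out; it passed the test in none of the 19, and the cause was not tested. The number of the 8 tested members that rose was 1, and 1 to 2 over the removal of single arrays, with 2 only without WT replicate 1, where Cybrd1 passed. The number of all named probe sets called was 5224 and ranged from 4344 to 6253. Of the other iron and copper genes, 17 to 24 rose and 17 to 29 fell. With the replicate block, 4913 probe sets were called, 1 member rose and 5 fell, and 20 other iron and copper genes rose and 25 fell. Array weights gave 8 fallen genes among the other transporters in place of 5, and 3 risen and 3 fallen haem genes in place of 1 and 1. Cyclic loess and centring on the 75th percentile each gave 2 fallen haem genes, and the replicate block 2 risen haem genes and 1 fallen carrier gene. Levels near background give no fold for Cybrd1, Hp, Sod3, Bmp6, Steap3, Steap4 and Slc22a17. The bound was small for Atp7b (1.06-fold), Atp7a (1.07-fold) and Crp (1.57-fold).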

Other observations

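Cp and Lcn2 are known as acute-phase genes, so 20 other genes of the acute-phase response were read, of which 19 were measured. Of these 5 rose, 1 fell and 13 did not pass the test, with a median change of 0.03. The called share was 31.6%, against 26.7% of all named probe sets. Saa1, Saa2, Saa4, Orm1, Orm2, Orm3, Fga, Fgb, Fgg, Serpina3n, Itih4 and Apcs were under the 95th percentile of the negative controls in all 10 arrays. So was Serpina1a, which had the lowest change on the list (-0.44). The median change thus mostly describes genes near background. Lbp, which encodes the lipopolysaccharide-binding protein, was at 11.74, 10.82, 10.74, 11.54 and 11.97 in KO and at 5.63, 5.88, 5.49, 5.70 and 5.82 in WT, and rose by 5.66 (SE 0.23; limma, adjusted p = 6.25e-09), at least 15.2-fold. Crp, which encodes C-reactive protein, rose by 2.93 (SE 0.32; limma, adjusted p = 2.64e-05), at least 1.57-fold. Saa3, a serum amyloid A gene, rose by 1.52 (SE 0.38; limma, adjusted p = 0.0109), at least 1.71-fold. Both were under the 95th percentile of the negative controls in all 5 WT arrays and 1 KO array. The list shares Hp with the carriers, where its rise of 1.26 near background is described. The mean level of the list per array was 5.74 to 6.21 in KO and 5.17 to 5.29 in WT.

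Slc22a17, which encodes a cell surface receptor for lipocalin 2, was chosen after its values were seen. It was at 6.70, 6.08, 6.16, 7.52 and 8.35 in KO and at 6.01, 6.10, 5.88, 6.06 and 5.85 in WT. KO replicates 4 and 5, the arrays with the highest Slc40a1, stood above the rest, and the change of 0.98 did not pass the test (limma, adjusted p = 0.0744). It passed with array weights, without KO replicate 2, without KO replicate 3 and without KO replicate 2 and WT replicate 4 together (limma, adjusted p 0.0238 to 0.0447). All 5 WT arrays and 3 KO arrays were under the 95th percentile of the negative controls, so no fold is given. Given how the gene was chosen, these p-values are a description only.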
